A study of Mus musculus with 4 samples.

Results

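The variable segments of the immunoglobulin heavy chain were examined in RNA of group 2 innate lymphoid cells (ILC2s) sorted from mouse lungs. Members were the genes whose symbol starts with *Ighv* and a number, which is the number of the family to which the segment belongs. They came to 185 of the 49315 genes in the count table. GENCODE annotated 113 of them as V genes, 70 as V pseudogenes and 2 as other V segments of the locus.

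Each of 4 groups had 1 library. PBS-WT and BLEO-WT were made from wild-type C57BL/6 mice given PBS or bleomycin, and PBS-HPS1 and BLEO-HPS1 from *Hps1*-/- mice given the same. All mice were congenic on C57BL/6, and the cells of all groups were lineage-negative, Thy1.2+, ICOS+ and T1/ST2+, with B220 among the lineage markers, and were kept with IL-2 after sorting. The methods describe both intraperitoneal and intratracheal bleomycin, with an age stated for the former only, and the sources used here do not say from which course or from how many mice the sequenced cells came. The comparisons ask how the RNA of these cells differs with genotype and with bleomycin, which causes lung injury and fibrosis.

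A B cell joins 1 V segment to a D and a J segment when it makes its heavy chain, so the V segment that is read marks the cell and its clonal descendants. The V segments lie in a row upstream of the D, J and constant genes, with families 2 and 5 at the near end and most of family 1, the largest family of this strain, at the far end. Segments of families 11 and 12 are known from B-1 cells, which make natural antibodies, many of them against phosphatidylcholine. ILC2s are defined by lacking rearranged antigen receptors, and the immunoglobulin genes are not among their markers.

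The segments that carry the results are shown first, as the last 300 bases of the annotated transcript, 5′ to 3′ on the coding strand. The capitals mark the in-frame codon of the conserved cysteine after which the segment is joined, near the 3′ end. *Ighv11-2* and *Ighv12-3* are shown for the B-1 families, *Ighv1-53* and *Ighv1-26* because they led the reads of 3 libraries, and *Ighv13-2* for the widest difference between genotypes, among the named members, in the ratio of bleomycin to PBS. All 5 lie on the minus strand of chromosome 12 in GRCm38, at chr12:114048241-114048540, chr12:114366521-114366820, chr12:115158403-115158702, chr12:114788372-114788671 and chr12:114357759-114358058 in that order, and each stretch lies within the last of 2 exons.
Ighv11-2: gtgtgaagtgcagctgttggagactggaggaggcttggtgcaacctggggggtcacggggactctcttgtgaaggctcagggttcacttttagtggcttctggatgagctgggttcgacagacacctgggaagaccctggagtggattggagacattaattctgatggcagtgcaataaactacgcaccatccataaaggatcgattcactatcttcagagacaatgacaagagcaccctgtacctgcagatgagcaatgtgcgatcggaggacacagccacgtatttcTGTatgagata
Ighv12-3: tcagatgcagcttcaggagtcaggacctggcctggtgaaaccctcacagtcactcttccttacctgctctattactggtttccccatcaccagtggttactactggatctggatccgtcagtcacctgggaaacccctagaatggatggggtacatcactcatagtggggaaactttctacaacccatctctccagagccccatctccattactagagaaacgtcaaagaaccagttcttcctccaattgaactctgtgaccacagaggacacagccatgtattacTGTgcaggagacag
Ighv1-53: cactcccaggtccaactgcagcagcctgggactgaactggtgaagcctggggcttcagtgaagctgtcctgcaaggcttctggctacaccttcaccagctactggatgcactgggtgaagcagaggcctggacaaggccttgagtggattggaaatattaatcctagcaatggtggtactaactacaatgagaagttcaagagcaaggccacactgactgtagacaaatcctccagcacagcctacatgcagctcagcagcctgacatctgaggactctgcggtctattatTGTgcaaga
Ighv1-26: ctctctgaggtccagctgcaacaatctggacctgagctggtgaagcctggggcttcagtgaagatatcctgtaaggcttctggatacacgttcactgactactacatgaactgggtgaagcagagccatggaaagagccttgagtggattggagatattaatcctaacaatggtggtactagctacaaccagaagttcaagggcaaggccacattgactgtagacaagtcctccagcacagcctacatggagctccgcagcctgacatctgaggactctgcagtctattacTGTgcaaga
Ighv13-2: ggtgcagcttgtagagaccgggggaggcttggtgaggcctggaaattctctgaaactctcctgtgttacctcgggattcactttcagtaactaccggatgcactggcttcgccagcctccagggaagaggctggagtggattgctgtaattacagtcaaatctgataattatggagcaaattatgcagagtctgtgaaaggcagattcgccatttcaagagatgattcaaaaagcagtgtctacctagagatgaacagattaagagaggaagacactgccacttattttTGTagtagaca
Over these bases *Ighv1-26* and *Ighv1-53*, of the same family, were identical at 262 of 300 aligned positions (87.3%). *Ighv11-2* and *Ighv12-3* were identical at 189 of 317 (59.6%). The cysteine codon was found in frame in 102 of the 113 V genes and in 22 of the 70 V pseudogenes. The word TACTGTG is an embedded recombination heptamer and includes the letters of the cysteine codon. Within the last 30 bases on the coding strand it stood in 70 of the 113 V genes (61.9%). It also stood there in 26 of the 70 pseudogenes (37.1%), against 143 of 55265 other genes (0.259%). *Ighv12-3* and *Ighv1-26* hold the word, and the other 3 segments above do not hold these letters in that window.

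Reads can be placed on a V segment only where its bases differ from those of its relatives. In *Ighv12-3* and *Ighv13-2*, 0% of the 50-base words stood in another gene, in *Ighv11-2* 38.6%, in *Ighv1-26* 49.0% and in *Ighv1-53* 57.6%. Reads of *Ighv1-53* and *Ighv1-26* may therefore have been split with relatives, and their values are less certain than those of the single-copy segments. *Ighv1-72* shared 92.5% of its words with other genes and 68.3% with *Ighv1-62-3* alone, which had no read in any library, so that its 34 to 252 reads are uncertain as to their source.

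Total counts ranged from 72513619 to 87638154 per library. *Hps1* was read in all 4 libraries, at 38.3 CPM (reads scaled to a common library size) in PBS-WT and 16.6 in PBS-HPS1, against 48.4 in BLEO-WT and 21.3 in BLEO-HPS1. It was lower in both Hps1-/- libraries than in both WT libraries. Of the ILC2 markers, *Gata3* stood at 25.1 to 39.1 CPM and *Il1rl1*, which encodes ST2, at 23.8 to 40.9 CPM, while *Ptgdr2*, which encodes CRTH2, *Il5* and *Il13* stood at 0.269 to 1.43 CPM. Markers that the sort should have removed were also read, with *Lyz2* of macrophages at 6083 to 13145 CPM and 10 of 10 T cell genes above 1 CPM in every library. Of 12 B cell genes none was at 0 in any library, and their summed level was 205 CPM in PBS-WT and 218 in PBS-HPS1, against 196 in BLEO-WT and 442 in BLEO-HPS1. *Cd79a* and *Cd79b* made 124 and 81.7 CPM of the sum in BLEO-HPS1. Plasma cell genes, 12 in the list, summed to 564, 505, 586 and 772 CPM in the same order. Of these sums *Xbp1* alone made 250, 262, 254 and 324 CPM, while *Tnfrsf17* stood at 0.121 to 0.285 CPM. T cell genes summed to 1068, 844, 932 and 1718 CPM, also in that order, and were thus highest in BLEO-HPS1 as the B cell genes were. Summed over their lists, macrophage and monocyte genes stood at 11573, 7678, 16605 and 15423 CPM in the same order. Of these sums *Lyz2* alone made 9428, 6083, 13145 and 12344 CPM. ILC2 genes summed to 747, 686, 927 and 1033 CPM, and *Thy1* and *Arg1* made 551 and 257 CPM of the sum in BLEO-HPS1. In BLEO-HPS1 against PBS-HPS1, 5 of the 12 ILC2 genes compared were at least 2-fold lower, against 19.6% of all genes. Another 3 were at least 2-fold higher, against 26.2%, and the median log2 ratio was -0.85. The part of other cell types in the values below was not tested.

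Read members were for the most part annotated V genes. A read fell on 130 of the 185 members in at least 1 library, 81 were read in all 4, and 55 had no read at all, 46 of these being pseudogenes. The 24 pseudogenes with a read each had at most 14 reads over the 4 libraries together. At least 1 CPM was reached by 27 members in PBS-WT and 22 in PBS-HPS1, against 15 in BLEO-WT and 51 in BLEO-HPS1. Comparisons between groups cover the 60 members that reached 1 CPM in some library and not the 125 others. A member that passed this filter in 1 library only, as 26 did, 17 of them in BLEO-HPS1, had to differ between libraries, so the counts below describe the members and are no evidence of a difference.

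BLEO-HPS1 held most *Ighv* RNA and BLEO-WT held least. The reads on all 185 members numbered 8311 in PBS-WT and 8496 in PBS-HPS1, against 3507 in BLEO-WT and 14549 in BLEO-HPS1, or 0.0115%, 0.0109%, 0.00400% and 0.0188% of the counts. Scaled for library composition, the summed level was 107 CPM in PBS-WT and 85.8 in PBS-HPS1, against 44.7 in BLEO-WT and 230.3 in BLEO-HPS1. BLEO-HPS1 thus had 5.15-fold the level of BLEO-WT, a log2 ratio of 2.36 with an exact 95% interval of 2.31 to 2.42. Bleomycin and PBS libraries differed in opposite directions, with log2 ratios of -1.25 (-1.31 to -1.20) in WT and 1.42 (1.39 to 1.46) in Hps1-/- cells. Between the PBS libraries the log2 ratio was -0.31 (-0.36 to -0.27), and its direction turned, with levels of 81.5 CPM in PBS-WT and 82.9 CPM in PBS-HPS1, when the 18 members that share most of their sequence with other genes, *Ighv1-53* among them, were left out. Intervals here and below cover counting error only, and with 1 library per group the spread between mice is unknown. In these bulk libraries more cells of a type and more RNA per cell cannot be told apart.

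**Figure D1:**
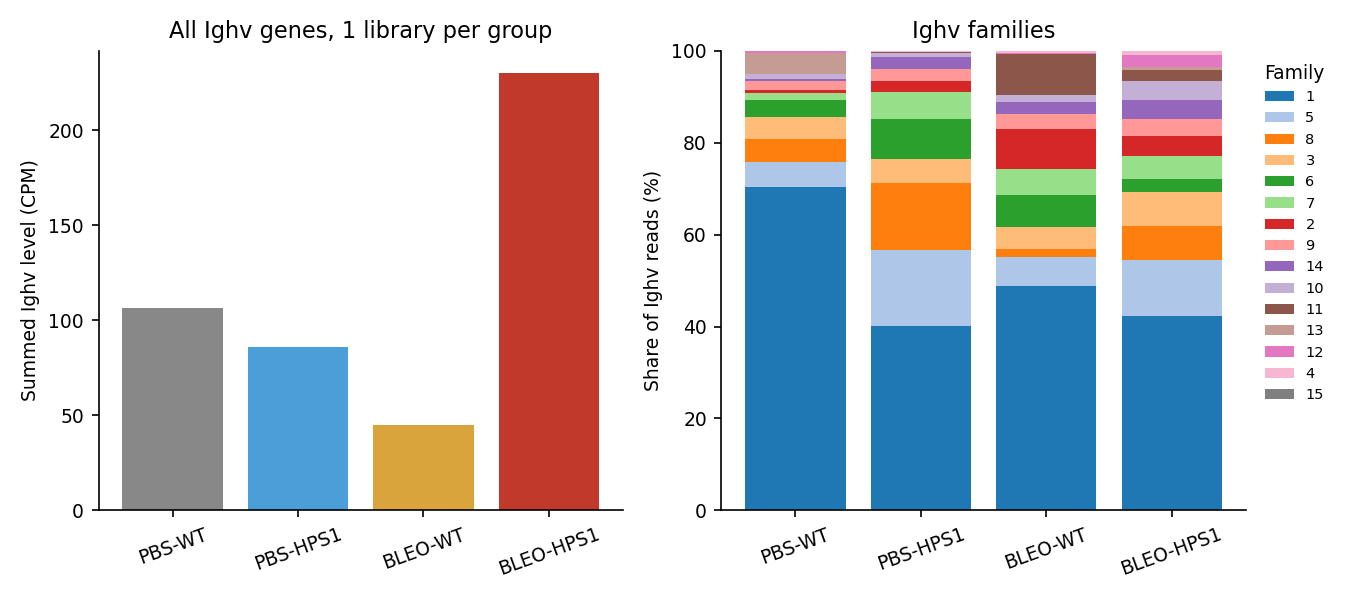
Left, the summed level of all 185 Ighv genes in CPM, with 1 bar per library (no replicates, so no error bars). Right, the share of each library's Ighv reads, in percent, that fell on each Ighv family. The summed level was 44.7 CPM in BLEO-WT and 230.3 CPM in BLEO-HPS1, and family 1 held 70.4% of the reads in PBS-WT against 40.2 to 48.8% in the other 3 libraries.

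The reads were spread more evenly over the genes in the bleomycin libraries than in the PBS libraries. Members with a read were no more numerous with bleomycin, at 97 against 100 in WT and 111 against 112 in Hps1-/- cells. The effective number of genes, the inverse of the summed squared shares of reads, which equals the gene count if all genes have equal shares, was 16.4 in PBS-WT and 19.8 in PBS-HPS1, against 26.4 in BLEO-WT and 37.4 in BLEO-HPS1. With every library thinned to 3507 reads it was 16.3, 19.8, 26.4 and 37.1, in the same order. The 5 most read members held 42.4% of the reads in PBS-WT and 40.5% in PBS-HPS1, against 32.9% in BLEO-WT and 24.7% in BLEO-HPS1. Numbers of cells sequenced stood in the same order, with 22405, 38873, 84166 and 128647 cells, and their part in the effective number cannot be told apart from that of the groups. BLEO-WT had the fewest *Ighv* reads and still a larger effective number than both PBS libraries.

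**Figure D2:**
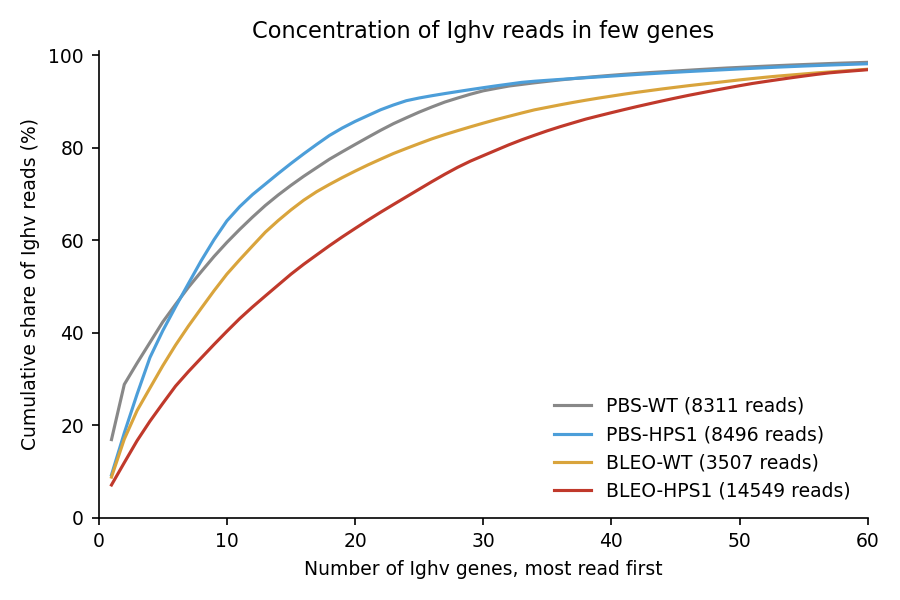
Cumulative share of a library's Ighv reads, in percent, against the number of Ighv genes counted from the most read, with 1 line per library. The first 5 genes held 42.4% of the reads in PBS-WT and 24.7% in BLEO-HPS1, and the BLEO-HPS1 line lies lowest over most of the range.

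Different segments led in different libraries. Most reads fell on *Ighv1-53* in PBS-WT (16.9% of *Ighv* reads), on *Ighv1-26* in PBS-HPS1 (9.29%) and BLEO-HPS1 (7.11%), and on *Ighv11-2* in BLEO-WT (8.81%). Per kilobase of transcript, the first place in BLEO-WT went to *Ighv1-53* at 10.5 CPM per kb, ahead of *Ighv11-2* at 8.55 CPM per kb, and the other 3 first places stayed. The overlap of 2 libraries, the sum over genes of the smaller of both shares, ran from 35.5% between PBS-HPS1 and BLEO-WT to 56.0% between BLEO-WT and BLEO-HPS1. Of the 20 most read members, 5 to 9 were shared by a pair of libraries.

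Family 1 held a larger share in PBS-WT than elsewhere. It took 70.4% of the *Ighv* reads in PBS-WT (exact interval 69.4 to 71.4%), 40.2% in PBS-HPS1 (39.1 to 41.2%), 48.8% in BLEO-WT (47.1 to 50.4%) and 42.2% in BLEO-HPS1 (41.4 to 43.1%). Without the most read member of each library these shares were 64.3%, 34.0%, 53.5% and 37.8%, and PBS-WT still stood highest. The member left out was *Ighv1-53* in PBS-WT only. In BLEO-WT it was *Ighv11-2*, of another family, so that the share of family 1 there rose. Family 5 held 5.51%, 16.5%, 6.27% and 12.3% in the same order, more in both Hps1-/- libraries than in both WT libraries. Family 8, which lies among family 1 at the far end, held 4.90%, 14.5%, 1.74% and 7.25%, with the same order of genotypes.

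Families 11, 12 and 13 were each carried by 1 segment and were almost absent from some libraries. Family 11 had 8 reads in PBS-WT and 7 in PBS-HPS1 against 309 in BLEO-WT and 342 in BLEO-HPS1, and all but 3 of these reads fell on *Ighv11-2*. Family 12 had 29, 4, 6 and 366 reads in the same order, all on *Ighv12-3*. Family 13 had 384, 8, 3 and 98 reads, all on *Ighv13-2*. Each of the 3 thus stood high in a different set of libraries, family 11 in both bleomycin libraries, family 12 in BLEO-HPS1 and family 13 in PBS-WT and, at a lower level, BLEO-HPS1.

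*Ighv11-2*, a segment known from B-1 cells, stood at 0.103 CPM in PBS-WT and 0.0404 in PBS-HPS1, against 3.94 in BLEO-WT and 5.41 in BLEO-HPS1. Both bleomycin libraries stood above both PBS libraries, by log2 ratios of 4.96 (4.27 to 6.49) in WT and 6.38 (5.70 to 8.95) in Hps1-/- cells. These log2 ratios have 2 reads added per library, while the intervals are those of the reads alone. Between the bleomycin libraries its log2 ratio was 0.46 (0.23 to 0.68), under 2-fold. Its neighbour *Ighv11-1*, whose last 300 bases are 98.7% identical, had 3 reads in PBS-HPS1 and 0 in the other libraries, where 3 reads, or 0.0383 to 0.0475 CPM, is the limit that a count of 0 allows.

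*Ighv12-3*, the only read member of the other B-1 family, stood at 0.372 CPM in PBS-WT and 0.0404 in PBS-HPS1, against 0.0765 in BLEO-WT and 5.79 in BLEO-HPS1. BLEO-HPS1 alone stood above 1 CPM, at a log2 ratio of 5.84 (5.11 to 7.70) to BLEO-WT and 6.47 (5.80 to 9.05) to PBS-HPS1. The pseudogenes *Ighv12-1* and *Ighv12-2* had no read. Both B-1 families were thus high in BLEO-HPS1, and *Ighv11-2* alone of the 2 segments was also high in BLEO-WT.

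*Ighv13-2* stood at 4.93 CPM in PBS-WT and 0.0808 in PBS-HPS1, against 0.0383 in BLEO-WT and 1.55 in BLEO-HPS1. It was high in the PBS library of one genotype and in the bleomycin library of the other. With 3 reads in BLEO-WT, its log2 ratio between the bleomycin libraries, Hps1-/- over WT, was 4.64 (3.75 to 7.64). The ratio of the scaled reads alone, with none added, was 40.5. Its log2 ratio of PBS-HPS1 to PBS-WT was -5.55 (-7.15 to -4.94).

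The most read segments of family 1 also differed between libraries. *Ighv1-53* stood at 18.0 CPM in PBS-WT and 0.889 in PBS-HPS1, against 3.67 in BLEO-WT and 8.64 in BLEO-HPS1. PBS-WT was highest and PBS-HPS1 lowest, with a log2 ratio of -4.30 (-4.67 to -4.03) between them. *Ighv1-26* stood at 12.7, 7.97, 1.33 and 16.4 CPM in the same order, above 1 CPM in every library, which among the members only *Ighv3-6* also was. BLEO-WT was the low library for *Ighv1-26*, with a log2 ratio of 3.60 (3.33 to 3.93) of BLEO-HPS1 to BLEO-WT and of -3.24 (-3.57 to -2.97) of BLEO-WT to PBS-WT.

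A group of segments was low in BLEO-WT alone. They were named for being among the most read in other libraries, and none was among the most read in BLEO-WT. Their low level there is thus partly set by how they were chosen. *Ighv8-8* stood at 4.73, 7.79, 0.472 and 10.95 CPM in the order PBS-WT, PBS-HPS1, BLEO-WT, BLEO-HPS1. *Ighv1-9* stood at 1.963, 4.25, 0.357 and 8.85 CPM, *Ighv5-9-1* at 4.73, 6.78, 0.191 and 3.78 CPM, *Ighv6-3* at 3.94, 7.21, 0.944 and 3.99 CPM, and *Ighv7-3* at 1.35, 4.97, 0.344 and 4.13 CPM. In all 5 BLEO-WT was at least 2-fold below each of the other libraries. Between the bleomycin libraries the log2 ratio, Hps1-/- over WT, ran from 2.05 (1.70 to 2.47) for *Ighv6-3* to 4.54 (4.08 to 5.23) for *Ighv1-9*.

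Another group stood highest in BLEO-HPS1, of which *Ighv5-17* and *Ighv3-6* were named for their reads in that library. *Ighv7-1* stood at 0.128 CPM in PBS-WT and 0.121 in PBS-HPS1, against 2.17 in BLEO-WT and 6.73 in BLEO-HPS1, and *Ighv6-6* at 0.141, 0.151, 2.16 and 2.22 CPM. Neither differed between the PBS libraries beyond counting error, and *Ighv6-6* did not between the bleomycin libraries either, with a log2 ratio of 0.04 (-0.29 to 0.37) that changed sign with scaling by total counts. *Ighv1-22* stood at 1.19, 0.151, 2.77 and 4.62 CPM, *Ighv5-17* at 0.334, 1.38, 1.34 and 11.1 CPM, and *Ighv3-6* at 1.68, 4.29, 1.84 and 9.67 CPM. In *Ighv7-1*, *Ighv6-6* and *Ighv1-22* both bleomycin libraries stood above both PBS libraries, and in *Ighv5-17* and *Ighv3-6* only BLEO-HPS1 stood above both.

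**Figure D3:**
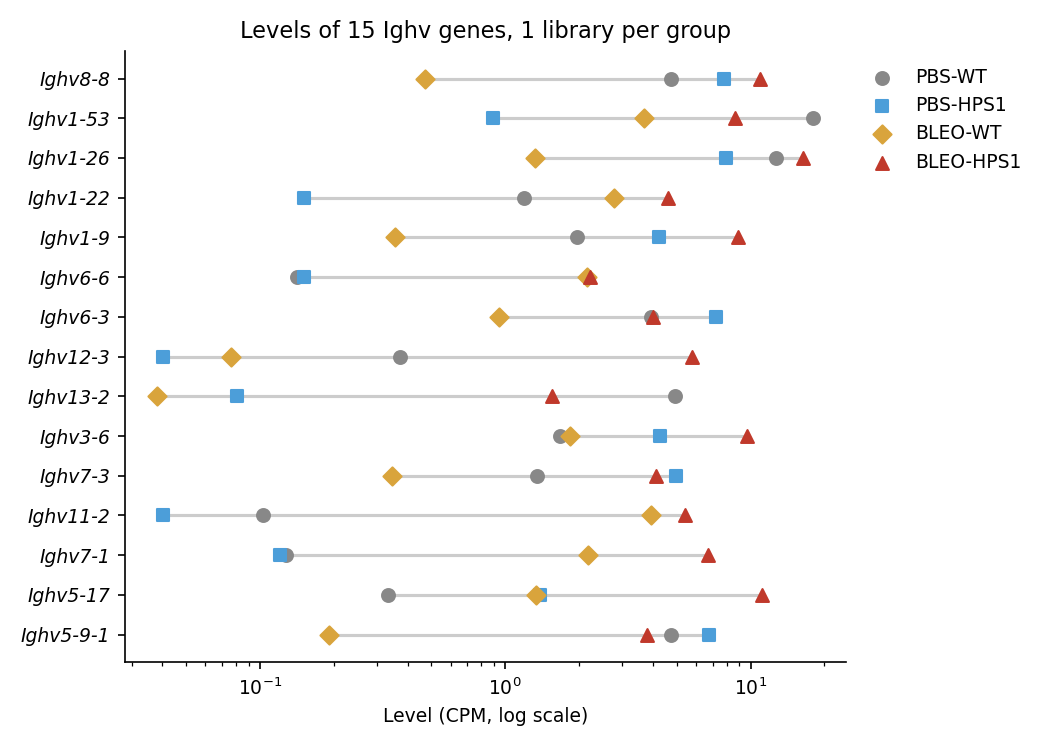
Levels of 15 Ighv genes in CPM on a log scale, 1 point per library, ordered by position with the gene nearest the joining segments at the bottom. The grey line joins the lowest and the highest library of a gene, which for Ighv11-2 runs from 0.0404 CPM in PBS-HPS1 to 5.41 CPM in BLEO-HPS1.

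Between BLEO-HPS1 and BLEO-WT the members differed in 1 direction for the most part. Of the 60 compared, 47 (78.3%) were at least 2-fold higher in BLEO-HPS1, against 6.72% of all 14840 compared genes, and 2 (3.33%) at least 2-fold lower, against 10.3%. The median log2 ratio of the members was 2.97 and that of all genes -0.04. The 2 lower members, named here after their values were seen, were *Ighv2-5*, which had 88 reads in BLEO-WT but 14 in BLEO-HPS1, and *Ighv1-12*, which had 19 and 4. All 15 families with a read were higher in BLEO-HPS1 when summed, 13 of them at least 2-fold. Ratios of families and of all members together are those of the summed reads, with no reads added. The log2 ratios of the families ran from 0.31 (-2.59 to 3.21) in family 15, which had 3 reads in each library, to 6.24 (5.11 to 7.70) in family 12, whose reads are those of *Ighv12-3*, at 5.84 with 2 reads added per library.

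Some B cell genes were also higher in BLEO-HPS1. *Cd79b* and *Cd79a*, the signalling chains of the B cell receptor, had log2 ratios of 2.00 and 1.80 to BLEO-WT, *Ms4a1*, which encodes CD20, 0.91, and *Pax5*, the B cell identity factor, 0.03. Of the 12 B cell genes 5 were at least 2-fold higher and none lower, against 6.72% and 10.3% of all genes, with a median of 0.87. Of the 11 plasma cell genes compared 4 were at least 2-fold higher and none lower, with a median of 0.61, and their log2 ratios were not of 1 sign. *Mzb1*, an endoplasmic reticulum protein of antibody-secreting cells, stood at 3.18 CPM in BLEO-WT and 17.4 CPM in BLEO-HPS1, while *Prdm1*, which encodes the plasma cell factor BLIMP-1, had a log2 ratio of -0.90, *Irf4* -0.43 and *Tnfrsf13b* -0.14. T cell genes differed by about as much as the B cell genes, with a median of 0.89 and 2 of 10 at least 2-fold higher and none lower, and their sum was 932 CPM in BLEO-WT and 1718 CPM in BLEO-HPS1. The part of these cell types in the *Ighv* levels was not tested.

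Between the PBS libraries the members differed widely and without a common direction. In PBS-HPS1, 16 of the 60 (26.7%) were at least 2-fold higher than in PBS-WT, against 2.16% of all genes, and 19 (31.7%) at least 2-fold lower, against 3.11%. The median was -0.05, and the standard deviation of the log2 ratios was 2.76 over the members and 0.57 over all genes. Beyond *Ighv1-53* and *Ighv13-2*, the lower members included *Ighv1-5*, with 274 reads in PBS-WT and 1 in PBS-HPS1, and the higher ones *Ighv1-36*, with 2 and 193 reads. These last 2 had the lowest and the highest log2 ratio of the comparison, -6.65 (-13.75 to -5.95) and 5.28 (4.37 to 9.30), and were named for it after their values were seen.

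With bleomycin the members went both ways in WT cells and mostly up in Hps1-/- cells. In BLEO-WT, 17 of the 60 (28.3%) were at least 2-fold higher than in PBS-WT, against 5.28% of all genes, and 25 (41.7%) at least 2-fold lower, against 8.22%, with a median of -0.28. In BLEO-HPS1, 43 (71.7%) were at least 2-fold higher than in PBS-HPS1, against 26.2% of all genes, and 3 (5%) at least 2-fold lower, against 19.6%, with a median of 2.95 beside 0.25 over all genes. The 3 lower members, named after their values were seen, were *Ighv1-36*, *Ighv1-63* and *Ighv5-6*, which stood at 1.95, 1.88 and 3.48 CPM in PBS-HPS1 and at 0.222, 0.396 and 0.839 CPM in BLEO-HPS1.

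The direction with bleomycin was opposite in the 2 genotypes for 16 of the 60 members (26.7%), which were at least 2-fold lower in WT and at least 2-fold higher in Hps1-/- cells. Of all 14840 compared genes, 0.485% showed this pattern. *Ighv1-26*, *Ighv1-53*, *Ighv1-9*, *Ighv12-3* and *Ighv13-2* are among the 16, and 11 of them belong to family 1, which had 28 of the 60 compared members. In 13 of the 16 both intervals left out 0. The other 3, named after their values were seen, were *Ighv9-2* and *Ighv1-12*, with 1 read each in PBS-HPS1 against 3 and 4 in BLEO-HPS1, and *Ighv3-5*, with 6 reads in PBS-WT against 1 in BLEO-WT. Another 13 members (21.7%) were at least 2-fold higher in both genotypes, against 3.99% of all genes, among them *Ighv11-2*, *Ighv7-1*, *Ighv6-6*, *Ighv5-17* and *Ighv1-22*. None of the 60 was at least 2-fold lower in both, against 5.44% of all genes. The reverse of the opposite pattern, higher in WT and lower in Hps1-/- cells, held for 2 (3.33%), against 0.0539% of all genes. These were *Ighv5-6* and *Ighv1-36*, of which the latter had 2 reads in PBS-WT and 7 in BLEO-WT, with an interval that includes 0.

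**Figure D4:**
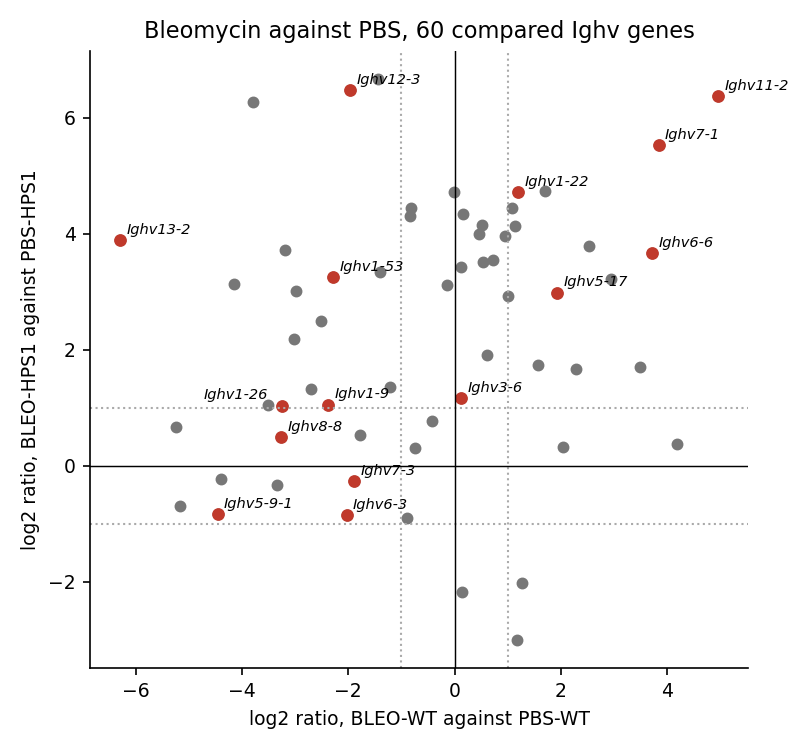
Log2 ratio of bleomycin to PBS in WT cells (horizontal) and in Hps1-/- cells (vertical), 1 point per compared Ighv gene, with the named genes in red and dotted lines at 2-fold. The upper left corner holds 16 genes, among them Ighv13-2 and Ighv12-3, and the upper right corner 13, among them Ighv11-2 and Ighv7-1.

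Scaling by total counts alone, in place of scaling for library composition, moved the median of all genes from 0.25 to -0.43 in BLEO-HPS1 against PBS-HPS1, from 0.09 to -0.18 in BLEO-WT against PBS-WT, from -0.19 to 0.06 between the PBS libraries and from -0.04 to -0.18 between the bleomycin libraries. Under it 9.06% of all genes were at least 2-fold higher and 34.5% lower in BLEO-HPS1 than in PBS-HPS1. Of the 58 members then compared, 36 were higher and 7 lower in that comparison. The shares of all genes higher and lower were 3.17% and 13.4% in BLEO-WT against PBS-WT, 4.38% and 2.02% between the PBS libraries and 4.92% and 14.8% between the bleomycin libraries. In those comparisons 13 members were higher and 28 lower, 21 higher and 18 lower, and 44 higher and 2 lower. Of the families, family 8 in BLEO-HPS1 against PBS-HPS1 (0.42 to -0.22) and family 3 between the PBS libraries (-0.14 to 0.10) changed sign. Of the named members, *Ighv8-8* in BLEO-HPS1 against PBS-HPS1 (0.49 to -0.15), *Ighv7-1* between the PBS libraries, *Ighv6-6* between the bleomycin libraries and *Ighv3-6* in BLEO-WT against PBS-WT did. Correction for GC content and length left 33 of the 60 members higher (55%) and 9 lower (15%) in BLEO-HPS1 against PBS-HPS1, where 17.5% and 8.63% of all genes then were. Between the PBS libraries it left 24 higher and 17 lower, against 2.24% and 2.92% of all genes.

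Some members stood almost wholly in 1 library. In 16 of the 60 (26.7%), chosen after their values were seen, 1 library held at least 80% of the CPM summed over the 4 libraries, which held for 0.431% of all compared genes. Of the 64 such genes in the table, these 16 were *Ighv* genes and 21 were variable genes of the light chains. BLEO-HPS1 was the high library of 11 of the 16 members, PBS-WT of 4, PBS-HPS1 of 1 and BLEO-WT of 0. Over all 64 genes, members included, these libraries were high for 31, 26, 3 and 4. *Ighv3-5* had 6, 2, 1 and 290 reads in the order PBS-WT, PBS-HPS1, BLEO-WT, BLEO-HPS1, so that 97.7% of its CPM stood in BLEO-HPS1. *Ighv5-9*, with 11, 14, 11 and 277 reads, and *Ighv3-8*, with 3, 13, 9 and 171 reads, were also of this kind. In PBS-WT the 4 were *Ighv1-59*, *Ighv3-1*, *Ighv1-12* and *Ighv9-2*, the first of which had 316, 32, 7 and 12 reads.

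BLEO-HPS1 was the highest library of 35 of the 60 compared members (58.3%) and of 41.4% of all compared genes, and PBS-WT of 15 (25%) and 23.3%. PBS-HPS1 was highest for 8 members (13.3%) and 16.3% of all genes, so that for both PBS libraries the share of the members was near that of all genes. BLEO-WT was highest for 2, *Ighv2-5* and *Ighv2-9-1*, or 3.33% of the members beside 19.1% of all genes. The latter stood at 1.61 CPM in BLEO-WT and 1.58 CPM in BLEO-HPS1, which did not differ beyond counting error.

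Along the locus the reads of PBS-WT lay farther from the joining segments at the median. The read-weighted median distance of the *Ighv* genes from the joining segments was 1485 kb in PBS-WT, 1154 kb in PBS-HPS1 and 1094 kb in both bleomycin libraries. At the upper quartile PBS-HPS1 lay farthest, at 1864 kb, against 1778 kb in PBS-WT and 1729 kb in both bleomycin libraries. *Ighv1-53* alone, at 1729 kb, held 16.9% of the reads in PBS-WT. Families 1 and 8, which fill the far end, together held 75.3% of the reads in PBS-WT and 54.7% in PBS-HPS1, against 50.5% in BLEO-WT and 49.5% in BLEO-HPS1. Families 2 and 5 at the near end held 6.21%, 18.8%, 14.9% and 16.6%. Near neighbours could differ, as *Ighv13-2* and *Ighv12-3*, at 928 and 937 kb, had their highest levels in different libraries.

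**Figure D5:**
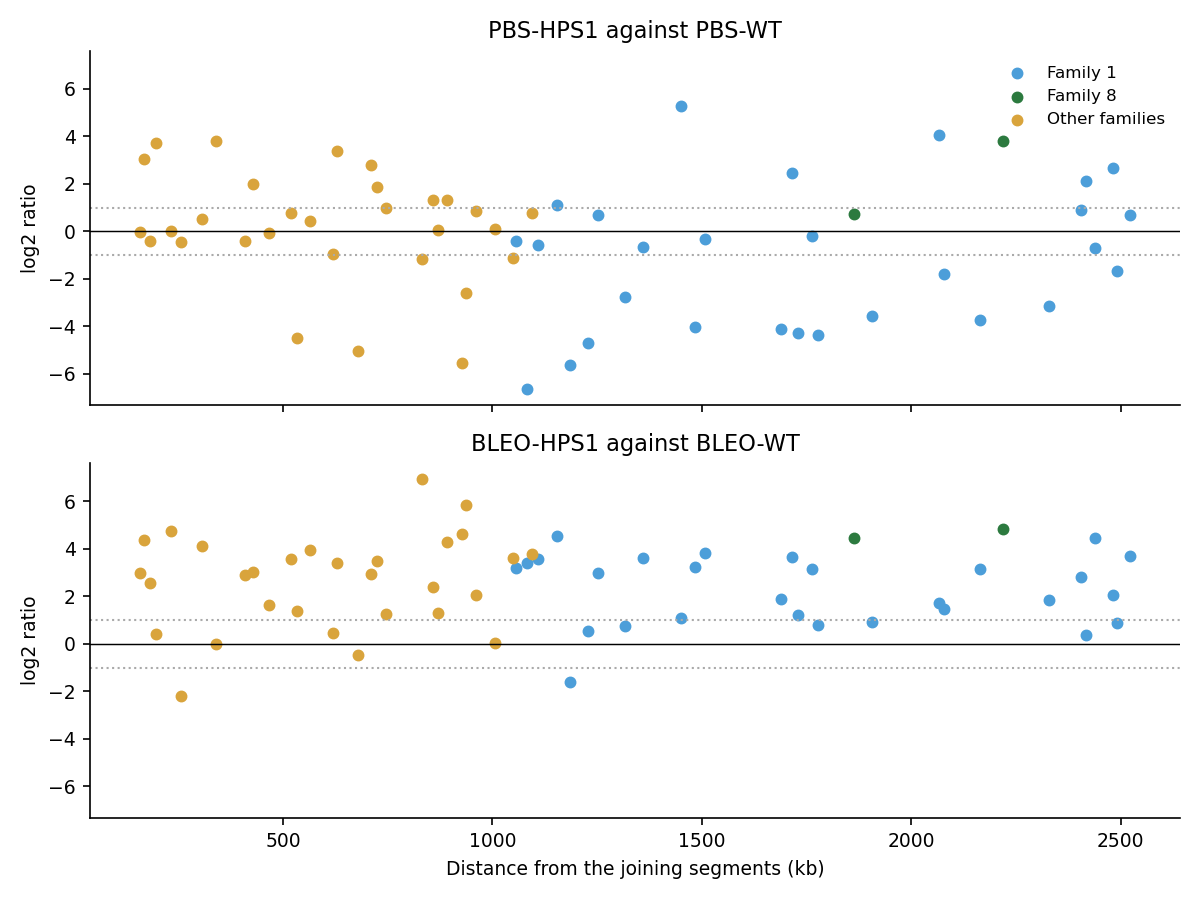
Log2 ratio between genotypes of each compared Ighv gene against its distance from the joining segments in kb, for the PBS libraries (top) and the bleomycin libraries (bottom), with dotted lines at 2-fold. In the top plot 16 genes lie above the dotted lines and 19 below, and in the bottom plot 47 lie above and 2 below.

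Light chain variable genes were read in near proportion to the heavy chain ones. The *Igkv* and *Iglv* genes summed to 177 CPM in PBS-WT and 129 in PBS-HPS1, against 68.8 in BLEO-WT and 355 in BLEO-HPS1, with the libraries in the same order as for *Ighv*. For each read on a light chain variable gene there were 0.604, 0.663, 0.650 and 0.649 reads on *Ighv* genes in the same order. The effective number of light chain variable genes was 12.7, 20.3, 19.7 and 37.5, lowest in PBS-WT and highest in BLEO-HPS1 as for the heavy chain. Unlike for the heavy chain, BLEO-WT did not stand above PBS-HPS1.

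The constant genes, which give the antibody class, were led by *Ighm* of IgM at 573 CPM in PBS-WT and 273 in PBS-HPS1, against 247 in BLEO-WT and 856 in BLEO-HPS1. *Igha* of IgA stood at 59.1, 159, 27.0 and 232 CPM, and was higher in both Hps1-/- libraries than in both WT libraries. *Ighg3* and *Ighg2b* of IgG were highest in PBS-WT, at 23.5 and 20.02 CPM, and lowest in BLEO-WT, at 0.536 and 0.663 CPM. The IgG genes *Ighg2c* and *Ighg1* were highest in BLEO-HPS1 instead, at 4.95 and 2.26 CPM, beside 1.83 and 0.218 in PBS-WT, 3.53 and 0.717 in PBS-HPS1, and 0.166 and 0.204 in BLEO-WT. Of the 8 compared genes of the list of constant genes and *Jchain*, 7 were at least 2-fold higher and none lower in BLEO-HPS1 against BLEO-WT. Of all genes 6.72% were higher and 10.3% lower. *Ighd* of IgD, at 18.7 CPM in BLEO-WT and 27.0 in BLEO-HPS1, was the other one. In BLEO-WT 6 of the 8 were at least 2-fold lower than in PBS-WT and none higher, against 8.22% and 5.28% of all genes. *Jchain*, which links IgM and IgA into polymers, stood at 78.3 CPM in PBS-WT and 13.1 CPM in BLEO-WT.

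Of 3 genes for factors that act at V segment promoters through the octamer motif, *Pou2af1* encodes a coactivator of B cells. It stood at 10.4, 11.97, 15.1 and 30.4 CPM in the order PBS-WT, PBS-HPS1, BLEO-WT, BLEO-HPS1. It was highest where *Ighv* was, but lowest in PBS-WT and not in BLEO-WT, where *Ighv* was lowest. *Pou2f2*, which encodes OCT2, stood at 82.0, 59.1, 46.1 and 43.9 CPM and did not follow the *Ighv* order either. *Pou2f1*, which encodes OCT1, stood at 16.7, 21.8, 12.7 and 6.73 CPM and was lowest where *Ighv* was highest. The recombination genes *Rag1* and *Rag2* had at most 31 reads in any library and stood below 1 CPM. *Dntt*, which adds bases at the joins, stood at 0.676 to 1.20 CPM. The surrogate light chain genes *Vpreb1*, *Vpreb2* and *Igll1*, which pre-B cells use, summed to 0.140 to 0.333 CPM. Of these genes only *Dntt* reached 1 CPM in some library, and it was not at least 2-fold higher or lower in any of the 4 comparisons.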

How the data were processed

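RNA of ILC2s from 4 groups was sequenced by the authors with a SMARTER mRNA kit, with 1 library per group, and groups follow the sample titles. The authors deposited raw counts, each a whole number of reads on an Ensembl gene, not normalized. The aligner, counting tool, build and handling of multi-mapped reads are not given in the sources used here, and multi-mapped reads, if dropped or shared out, would lower or blur the counts of near-identical V segments. The deposited counts were read for 49315 genes, of which 48970 had a position on a chromosome in GENCODE M21 (GRCm38), the source of positions, biotypes and transcript sequences.

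Library sizes were adjusted by the TMM method (edgeR 4.0.16, R 4.3.3), levels were written as CPM, reads scaled to a common library size, and log2 ratios of single genes had a prior count of 2, those of summed reads none. The 14840 genes that reached 1 CPM in some library were compared, and a difference of 2-fold or more was counted as a change. With no replicates there was no test across genes, and no p-value is given. Intervals are exact Clopper-Pearson intervals at 95%, and 3 reads is the floor for a count of 0. PCR copies are not independent molecules, so both cover counting error only. Shared sequence was the share of a transcript's 50-base words found in any other gene's transcripts, and a member above 50% was taken to share most of its sequence. Other steps used Python 3.11.15, and the scripts were tested on simulated data.

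The named members were the 5 with most reads in each library, the 3 with the largest ratio in each direction and comparison among those that reached 10 CPM in one of the libraries compared, of which there were only 2 or 3 per comparison, and all of families 11 and 12, together with the genes of the lists of constant, octamer, recombination and surrogate light chain genes. The members, lists and markers were chosen with earlier results of these data known. Alternatives were DESeq2 1.42.0 size factors, total counts, TMM without immunoglobulin genes, other prior counts, filters and folds, correction of the ratios by loess on GC content and transcript length, and leaving out pseudogenes, the most read members or members that share most of their sequence. Octamer motifs and recombination signals beside the segments were not analysed here. Some genes of the lists are not reported here by name.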

Additional observations from a re-analysis of the deposited data

Results flagged for a closer look

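The log2 ratio of bleomycin to PBS had opposite signs in the 2 genotypes for the summed *Ighv* reads, for several families and for several named members. With 1 library per group none of these differences was tested. For the summed reads the ratio was higher by 2.68 in Hps1-/- than in WT cells, and by 2.30 with scaling by total counts. Among the families the difference was 3.28 for family 1, 3.12 for family 3, 2.07 for family 5, 3.17 for family 8, 2.33 for family 9, 4.35 for family 10, 9.45 for family 12 and 11.27 for family 13, from ratios of summed reads with no reads added. That of family 8 rests on a ratio in Hps1-/- cells that changed sign with scaling by total counts. Among the members, with 2 reads added per library, it was 4.27 for *Ighv1-26*, 5.53 for *Ighv1-53*, 3.43 for *Ighv1-9*, 8.44 for *Ighv12-3* and 10.18 for *Ighv13-2*. *Ighv12-3* and *Ighv13-2* hold all reads of families 12 and 13, so that these values differ by the reads added alone. All 4 rest on 3 to 8 reads in the PBS-HPS1 and BLEO-WT libraries, and with 3 reads in BLEO-WT the ratio of family 13 in WT cells was -7.01, with an interval of -9.29 to -5.45. The summed B cell markers stood at 205 and 196 CPM in the PBS and bleomycin libraries of WT cells and at 218 and 442 CPM in those of Hps1-/- cells. The summed T cell markers went the same way, at 1068 and 932 CPM in WT and 844 and 1718 CPM in Hps1-/- cells. Of the B cell sum in BLEO-HPS1, *Cd79a* and *Cd79b* made 124 and 81.7 CPM. Against PBS-HPS1, 4 of the 12 B cell genes were at least 2-fold higher and none lower, beside 26.2% and 19.6% of all genes. Their median log2 ratio was 0.57, and those of *Pax5*, *Cr2*, *Ebf1* and *Bank1* were negative, at -0.79 to -0.23. The part of B cell or T cell markers in these differences was not tested.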

How the results depend on the processing

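No paired analysis was possible because each group had 1 library, and no library could be left out. No ratio of a named member changed sign from a size of at least 2-fold under any alternative run. Without a filter on low values, over all 185 members, 26 (14.1%) were at least 2-fold higher and 29 (15.7%) lower between the PBS libraries, against 13.7% and 3.94% of all genes, so that the share of higher members was near that of all genes. There were 75 higher and 4 lower between the bleomycin libraries (median 0.41), against 6.87% and 8.65% of all genes, 27 and 37 in BLEO-WT against PBS-WT, against 4.90% and 12.8%, and 69 and 11 in BLEO-HPS1 against PBS-HPS1 (median 0.30), against 10.95% and 24.9%. The medians fell because members without reads have a ratio of 0. With a mean CPM of at least 1, which left 41 members, 10 were higher and 15 lower between the PBS libraries, against 1.35% and 2.35% of all genes, 32 and 0 between the bleomycin libraries, against 5.86% and 9.69%, 11 and 21 in BLEO-WT, against 4.97% and 6.71%, and 30 and 1 in BLEO-HPS1 against PBS, against 26.3% and 18.3%. A prior count of 10 and a threshold of 4-fold each left 1 lower member between the bleomycin libraries, against 9.33% and 0.418% of all genes, and 4-fold left 9 higher in BLEO-WT, against 1.14%. Members lower in BLEO-HPS1 against PBS-HPS1 numbered 7 with total counts and 9 with the correction for GC content and length. In the order PBS-WT, PBS-HPS1, BLEO-WT, BLEO-HPS1, the summed level was 115, 109, 40.0 and 188 CPM with total counts, 61.5, 51.1, 30.02 and 173 without the 5 most read members and 81.5, 82.9, 39.3 and 209 without members that share most of their sequence. With DESeq2 size factors it was 235 CPM in BLEO-HPS1. The exponential of Shannon's entropy gave effective numbers of 29.0, 29.2, 39.7 and 50.2. With reads per base of transcript, an alternative chosen after seeing the data, the number was 15.7 in PBS-WT. Family 1 held 64.3%, 34.0%, 53.5% and 37.8% without each library's most read member. The order of the summed levels of PBS-WT and PBS-HPS1 turned when members that share most of their sequence were left out. Values for members with under 10 reads are limited by depth.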

Other observations

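Members of 1 family could stand high in different libraries. In family 5, named after their values were seen, *Ighv5-6* was highest in PBS-HPS1, at 345 reads against 19 to 53 elsewhere, and *Ighv5-9* in BLEO-HPS1, at 277 reads against 11 to 14 elsewhere. In family 8, *Ighv8-12* had 23, 441, 13 and 347 reads in the order PBS-WT, PBS-HPS1, BLEO-WT, BLEO-HPS1, high in both Hps1-/- libraries and low in both WT libraries. Its levels were 0.295, 4.45, 0.166 and 5.49 CPM. In family 10, *Ighv10-1* and *Ighv10-3* had 265 and 343 reads in BLEO-HPS1 and at most 69 and 32 reads in any other library.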
